A study of Homo sapiens with 6 samples.

Results

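The genes described here are the translation initiation and elongation factors, taken as the protein-coding genes whose official symbol starts with EIF and a digit from 1 to 6, or with EEF. Of the 12486 genes in the deposited expression table, 67 met this rule, out of 71 such genes in the RefSeq annotation, and all 67 were tested. The rule reads symbols only, and it was set with earlier results of these data known. RNA-seq was carried out on K562 cells, a human line from chronic myeloid leukemia whose growth depends on the Bcr-Abl kinase. The cells stably expressed an shRNA to luciferase as control (sh-luc, 3 libraries) or an shRNA to lncRNA-IUR1 (sh-IUR1, 3 libraries), a long noncoding RNA that the sample labels call lncRNA-up91. In each group 1 library carries no replicate number and is called unnumbered here, and the others are r1 and r2. The comparison asks which transcripts differ when this lncRNA is depleted. Per the study's methods the RNA came from 3 independent groups of cells, and the knockdown was made with 1 shRNA sequence, so an effect of that sequence on other targets and an effect of lncRNA-IUR1 cannot be told apart. The level of lncRNA-IUR1 itself was not analysed here.

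Translation of most cellular mRNAs begins when eIF4F binds the cap, its helicase opens the leader, and a small ribosomal subunit carrying eIF1, eIF1A, eIF3, eIF5 and the eIF2-GTP-initiator tRNA complex scans to the start codon. Phosphorylation of eIF2 by the EIF2AK kinases, which respond to heme shortage, double-stranded RNA, unfolded proteins or amino acid shortage, lowers initiation. The eIF4E-binding proteins of the EIF4EBP genes, inhibited by mTOR, block the assembly of eIF4F. Elongation then uses eEF1A to deliver aminoacyl-tRNA, the eEF1B subunits to recharge eEF1A with GTP, and eEF2 to move the ribosome. In Bcr-Abl-positive cells mTOR signaling downstream of the kinase is known to act on this machinery. The measurements below are of mRNA only, and neither phosphorylation nor protein synthesis was measured.

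Many mRNAs of the translation machinery begin with a C followed by a run of pyrimidines, the terminal oligopyrimidine motif through which mTOR signaling controls their translation. The windows below cover 10 bases before and 20 bases from the RefSeq transcription start (GRCh38.p14), and are shown for some of the most abundant members to compare starts with and without such a run. Capitals mark a run of at least 5 C or T that begins with C within 5 bases of the annotated start, read on the strand of the gene. EEF1A1 lies at chr6:73521013-73521042 (minus strand), EEF2 at chr19:3985444-3985473 (minus), EIF3K at chr19:38619178-38619207 (plus), EEF1G at chr11:62573872-62573901 (minus) and EIF4A1 at chr17:7572815-7572844 (plus).
EEF1A1: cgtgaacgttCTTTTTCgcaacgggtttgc
EEF2: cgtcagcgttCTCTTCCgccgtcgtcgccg
EIF3K: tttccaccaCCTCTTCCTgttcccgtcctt
EEF1G: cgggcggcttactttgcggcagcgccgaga
EIF4A1: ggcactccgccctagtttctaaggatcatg
A start window was given for 53 of the 67 members. Such a run was found in 19 of these 53 windows (35.8%), against 22.9% of 10004 windows of protein-coding genes in the table. The 19 members with the run had a median level of 205.4 FPKM and a median log2 fold change of -0.0079, and the 34 without it had 46.0 FPKM and -0.034. Both medians of the fold change were thus near 0. A match is a description of the letters around an annotated start, not evidence of a start in K562 cells.

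The 6 libraries correlated at 0.9903 to 0.9984 in log2(FPKM + 1), and 11 of 11 markers of K562 identity were listed at 9.13 FPKM or more. Of 15 markers of other cell types 8 were listed, and of these CD3E, CD79A and COL1A1 were at or near 0 while the epithelial genes EPCAM, KRT8 and KRT18 were high in each library. The sh-luc unnumbered library stood apart from the others, at -19.8 on a principal component with 59.3% of the variance, against -3.75 to 13.0 for the other 5. It also had the lowest summed level of 9 amino acid and unfolded protein stress genes, 714.8 FPKM against 1028 to 1362 FPKM in the other libraries. This list includes DDIT3, TRIB3 and ASNS and was chosen with earlier results of these libraries known. Without it, the fold change between groups turned direction for 20 of the 67 members. Values without it are given beside the results that it moved most.

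The members spanned a wide range of levels. FPKM, the fragments of a gene scaled by transcript length and library size, is a level per length, which allows a rough comparison between genes. That comparison rests on the transcript lengths used, and the annotation behind them is not given in the sources used here. EEF1A1, the main carrier of aminoacyl-tRNA, was the highest at a mean of 7823 FPKM over the 6 libraries, followed by EEF1G at 2427 FPKM and EEF2 at 2406 FPKM. EIF4E3, a member of the cap-binding family, was the lowest at 0.273 FPKM. The members together summed to 21093 to 21667 FPKM per library, 3.50% to 3.71% of the listed total, and EEF1A1 alone made 35.3% to 38.2% of that sum. Over the 3 libraries of a group the sum was 21179 ± 76.2 FPKM (SD) for sh-luc and 21516 ± 227.3 FPKM for sh-IUR1, a ratio of 1.02.

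**Figure D1:**
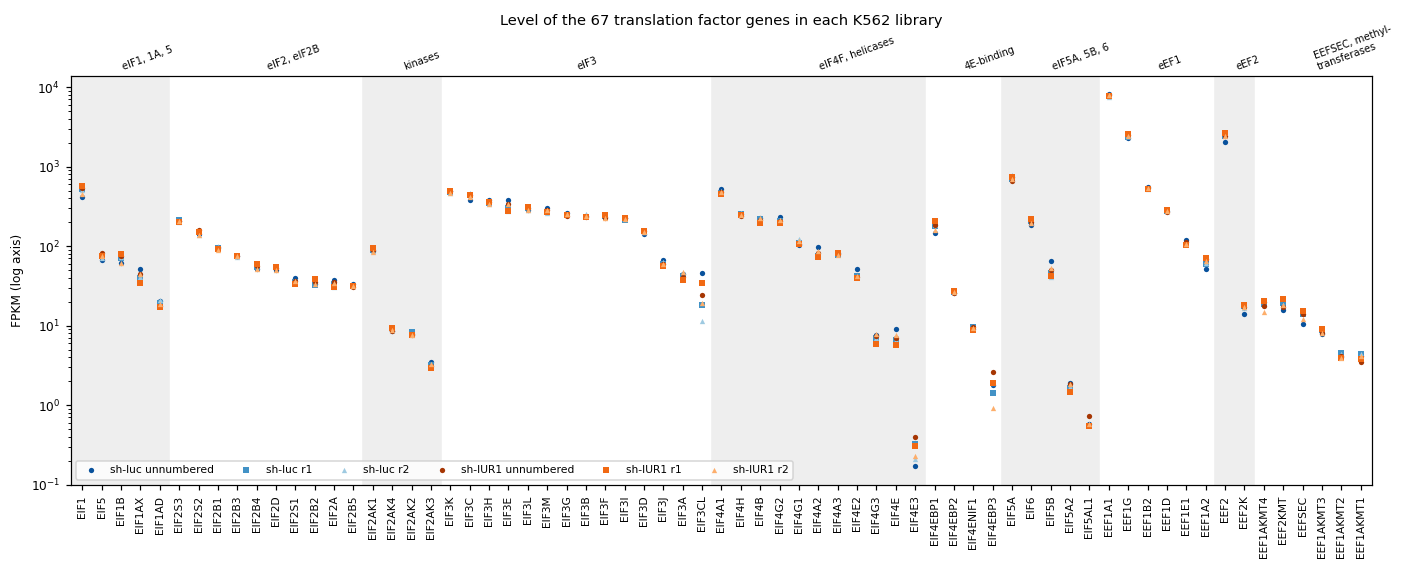
FPKM (log axis) of each of the 67 members in each of the 6 libraries, ordered by role and, within a role, by mean level; blue points are sh-luc and orange points sh-IUR1. Single libraries run from 8111.47 FPKM for EEF1A1 to 0.17 FPKM for EIF4E3, and for most genes the 6 points lie almost on each other.

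No member changed past the threshold. In the limma fit over 12276 genes, 0 of the 67 members had an adjusted p under 0.05, where 0% of all genes did, and the lowest adjusted p of a member was 0.93. An unmoderated linear model also called 0 members. At an unadjusted p under 0.05, limma gave 2 of 67 members (2.99%), EEF1A2 and EIF1AD, against 2.65% of all genes, so the share among the members was close to the background. The unmoderated model gave 4 (5.97%, against 2.80% of all genes). All 3 libraries of sh-IUR1 lay above all 3 of sh-luc for 2 members (2.99%, against 4.04% of all genes), EEF1A2 and EIF5. They lay below for 5 members (7.46%, against 3.03% of all genes), EIF1AD, EIF2AK2, EEF1AKMT1, EIF2B1 and EIF4H. Exact permutation of 3 against 3 libraries cannot give a p under 0.1 for any single gene.

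The differences of the members were small, as were those of most genes tested. The median absolute log2 fold change was 0.044 over the members and 0.063 over all genes tested. None of the 67 exceeded 0.25, a size that 2.66% of all genes exceeded, and 14 of 67 (20.9%) exceeded 0.1, against 29.0% of all genes. With a library left out, EEF1A2, EIF3CL or EIF4EBP3 passed 0.25, the furthest being EIF3CL at 0.76 without sh-luc unnumbered. These were 0% to 4.48% of the members, against 1.2% to 7.38% of all genes. With all libraries and a pseudocount of 0.1, EIF4E3 passed it (1.49% of the members, against 9.67% of all genes). For 61 of the 67 (91.0%, against 91.1% of all genes) the range among the 3 sh-luc libraries was wider than the difference between groups. The members were thus like the background here. This sets a range of single libraries, with sh-luc unnumbered among them, against a difference of means, which varies less. The fold change was above 0 for 28 and below 0 for 39 members, with a median of -0.01 against 0.02 over all genes, of which 58.0% were above 0. This split moved with the scaling, to 32 above 0 after quantile normalization and 21 after median-ratio scaling, and to 34 without the sh-luc unnumbered library.

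**Figure D2:**
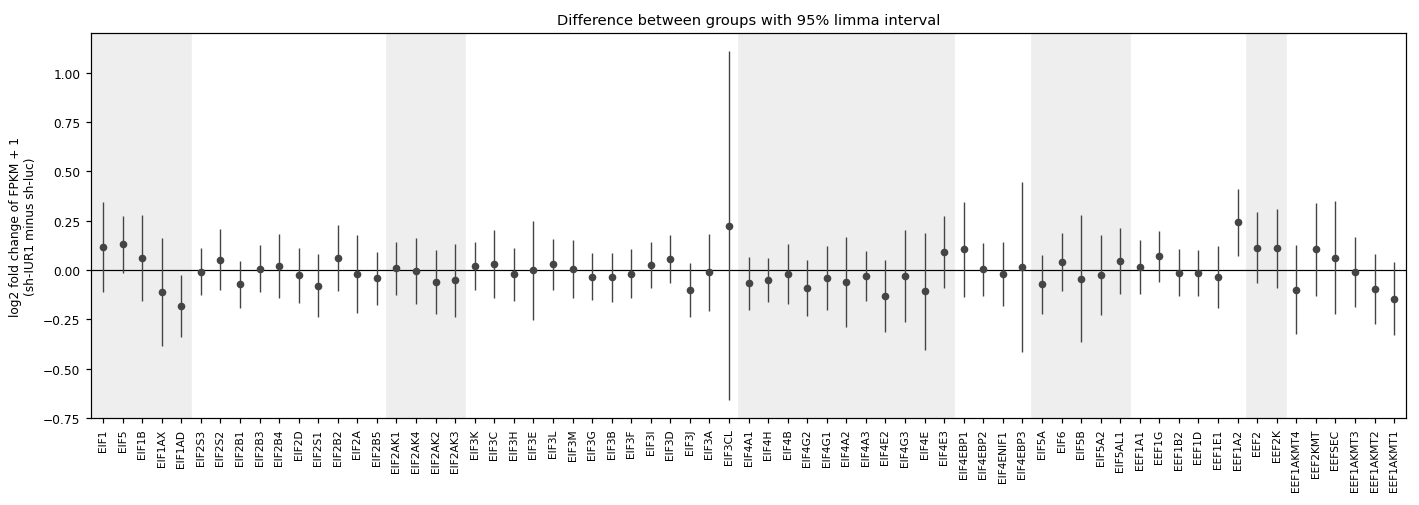
Difference between groups for each of the 67 members in log2(FPKM + 1), sh-IUR1 minus sh-luc, as the limma estimate (point) with its 95% interval (line), in the order of roles used for the levels. The points lie between -0.18 (EIF1AD) and 0.24 (EEF1A2), and the widest interval, -0.66 to 1.11, belongs to EIF3CL.

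The 5 genes grouped here under scanning and start codon choice include EIF1AD, whose part in scanning these data do not show. Of the 5, 3 had a fold change above 0 and 2, EIF1AD and EIF1AX, below. EIF1, which guards against start at wrong codons, was the most abundant of them, with 412.04, 516.73 and 505.20 FPKM in sh-luc (unnumbered, r1, r2) and 531.30, 568.21 and 454.69 FPKM in sh-IUR1. The groups overlapped, and the lowest value was that of sh-luc unnumbered. The log2 fold change was 0.12 (SE 0.10) and 0.014 without that library. EIF5, the GTPase-activating protein of eIF2 (chr14:103334237-103345025), was at 66.49, 74.81 and 70.64 FPKM in sh-luc and 81.44, 75.28 and 75.40 FPKM in sh-IUR1. Its groups did not overlap, but the nearest libraries of the groups, both r1, were 0.47 FPKM apart. The log2 fold change was 0.13 (SE 0.065, 95% interval -0.01 to 0.27), with an adjusted p of 0.93 in limma.

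EIF1AD, an eIF1A-domain protein (chr11:65996545-66002157), had the largest fold change below 0. Its levels were 20.29, 19.23 and 21.16 FPKM in sh-luc and 17.39, 16.97 and 18.71 FPKM in sh-IUR1. Each sh-IUR1 library was below each sh-luc library. The log2 fold change was -0.18 (SE 0.071, 95% interval -0.34 to -0.03), and it lay between -0.22 and -0.15 when each library was left out. The adjusted p was 0.93 in limma and 0.667 to 0.9997 over the alternatives. EIF1AX, which encodes eIF1A itself, went from 44.1 ± 6.72 to 40.7 ± 5.86 FPKM (SD, n = 3), a difference within the spread of either group. Its log2 fold change turned from -0.11 to 0.0064 without sh-luc unnumbered.

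The 10 genes of eIF2, its exchange factor eIF2B and related factors had fold changes from -0.08 to 0.06, 4 above 0 and 6 below. EIF2S3, the tRNA-binding gamma subunit, was the highest at 206.0 ± 7.54 FPKM in sh-luc and 204.8 ± 1.88 FPKM in sh-IUR1. EIF2S1, the subunit that stress kinases phosphorylate, was at 40.18, 35.51 and 36.47 FPKM in sh-luc and 36.30, 33.20 and 36.46 FPKM in sh-IUR1. These values overlapped, and the log2 fold change was -0.08 (SE 0.071), or -0.03 without sh-luc unnumbered. EIF2B1, the alpha subunit of eIF2B, was at 96.32, 94.14 and 98.17 FPKM against 93.33, 90.68 and 90.08 FPKM. The groups did not overlap, with 0.81 FPKM between the nearest libraries and a log2 fold change of -0.07 (SE 0.053).

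The 4 eIF2 kinases differed far more from each other than between groups. EIF2AK1, the heme-regulated kinase known for its role in erythroid cells, was at 88.5 ± 1.73 FPKM in sh-luc and 89.0 ± 4.89 FPKM in sh-IUR1. EIF2AK4, the amino acid sensor GCN2, was at 8.93 ± 0.454 and 8.88 ± 0.289 FPKM. EIF2AK2, the double-stranded RNA sensor PKR, was at 7.86, 8.31 and 7.89 FPKM in sh-luc and 7.53, 7.71 and 7.68 FPKM in sh-IUR1. Its groups did not overlap, with a log2 fold change of -0.06 (SE 0.072). EIF2AK3, the unfolded protein sensor PERK, was the lowest of the 4 at 3.27 ± 0.217 and 3.12 ± 0.184 FPKM, with a log2 fold change of -0.05 that was -0.01 without sh-luc unnumbered. The order of the 2 middle kinases, GCN2 above PKR, held in each library.

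The 14 eIF3 genes, which encode the scaffold of the small-subunit complex, were split evenly, 7 above and 7 below 0. EIF3K was the highest at 480.0 ± 12.4 FPKM in sh-luc and 486.8 ± 16.5 FPKM in sh-IUR1. EIF3J, the loosely bound subunit, was at 65.92, 59.62 and 63.58 FPKM against 60.27, 56.72 and 59.22 FPKM, with overlapping groups and a log2 fold change of -0.10 (SE 0.061). EIF3E varied within groups, at 375.21, 303.16 and 274.35 FPKM in sh-luc and 334.56, 277.94 and 333.92 FPKM in sh-IUR1. Its log2 fold change was -0.0024 and became 0.12 without sh-luc unnumbered.

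EIF3CL showed the widest range of any member, and its reads may be shared with EIF3C. The pair lies on chromosome 16, EIF3C at chr16:28688558-28735730 and EIF3CL at chr16:28379581-28426418, and the genes are near-identical copies. EIF3CL was at 46.41, 18.20 and 11.47 FPKM in sh-luc and 24.15, 34.55 and 19.26 FPKM in sh-IUR1, a range of 1.93 log2 units within sh-luc. EIF3C, by contrast, was lowest in the sh-luc unnumbered library, at 376.63 FPKM against 434.94 and 464.64 FPKM in the other sh-luc libraries and 438.33, 443.93 and 417.43 FPKM in sh-IUR1. The sum of both genes was 450.8 ± 26.6 FPKM in sh-luc and 459.2 ± 21.1 FPKM in sh-IUR1. How the authors divided reads between the copies is not given in the sources used here, so the values of each copy are uncertain.

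The 11 genes grouped here under the cap-binding complex and helicases include EIF4A3, EIF4G2, EIF4E2 and EIF4E3. These share the symbol family but need not be part of that complex. Of the 11, 10 had a fold change below 0, with a median of -0.05 against 0.02 over all genes tested. In this group 0 passed the test. Without the sh-luc unnumbered library 6 of 11 were below 0 with a median of -0.02, and without sh-IUR1 r1 7 of 11 were. EIF4A1, the helicase, was the highest at 517.51, 465.56 and 495.28 FPKM in sh-luc and 480.05, 449.17 and 480.61 FPKM in sh-IUR1. Its log2 fold change of -0.07 (SE 0.060) was -0.03 without sh-luc unnumbered. EIF4E2, a cap-binding protein linked to repression, had the largest fold change of the role, -0.13 (SE 0.082), from 50.91, 42.23 and 41.16 FPKM to 40.49, 39.70 and 41.53 FPKM. Only the sh-luc unnumbered library was far from the other 5, and without it the value was -0.04.

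EIF4H, a cofactor of the helicase, was at 250.58, 252.77 and 257.23 FPKM in sh-luc and 240.21, 247.27 and 246.09 FPKM in sh-IUR1. The groups did not overlap, and the log2 fold change was -0.05 (SE 0.050). EIF4E, the cap-binding subunit itself, was low at 7.44 ± 1.48 FPKM in sh-luc and 6.79 ± 0.956 FPKM in sh-IUR1. Its log2 fold change turned from -0.11 (SE 0.13) to 0.03 without sh-luc unnumbered. In each library its level was exceeded by that of EIF4E2, 5.41 to 6.87 times, and by that of the scaffold EIF4G1, 11.3 to 18.8 times.

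Among the 4 eIF4E-binding proteins, EIF4EBP1, the mTOR substrate 4E-BP1, was the highest. Its levels were 146.45, 179.19 and 181.90 FPKM in sh-luc and 182.09, 207.05 and 158.05 FPKM in sh-IUR1. The groups overlapped, with the lowest value in sh-luc unnumbered and the highest in sh-IUR1 r1, the same libraries that had the lowest and highest summed stress genes (714.8 and 1362 FPKM). The part of that difference in the result was not tested. The log2 fold change was 0.11 (SE 0.11) with all libraries and 0.006 without sh-luc unnumbered. The ratio of EIF4EBP1 to EIF4E ranged from 16.0 in sh-luc unnumbered to 35.8 in sh-IUR1 r1, with means of 23.6 ± 6.61 and 27.6 ± 7.70 (SD, n = 3) that did not differ beyond their spread. The mean of sh-luc r1 and r2 alone was 27.4. EIF4EBP2 was steady, at 26.4 ± 0.544 and 26.4 ± 0.465 FPKM.

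Among the 5 genes of subunit joining, eIF5A and eIF6, 2 had a fold change above 0 and 3 below. EIF5A, which helps ribosomes through difficult peptide bonds, was the highest at 741.16, 691.70 and 774.11 FPKM in sh-luc and 658.67, 746.55 and 692.49 FPKM in sh-IUR1. The groups overlapped and the log2 fold change was -0.07 (SE 0.067). EIF5B, the GTPase of subunit joining, was at 64.13, 46.35 and 41.33 FPKM in sh-luc and 50.36, 42.09 and 52.82 FPKM in sh-IUR1. The unnumbered sh-luc library was the highest of the 6, and the log2 fold change turned from -0.04 to 0.14 without it.

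EEF1A2, the second eEF1A gene, known from muscle and neurons (chr20:63488014-63499083), had the largest fold change of the 67 members in log2(FPKM + 1) with all libraries. EIF4E3, the least abundant member, had a larger ratio of means (1.34 against 1.18), and without sh-luc unnumbered EIF3CL had the larger log2 fold change. EEF1A2 was at 51.95, 60.37 and 61.93 FPKM in sh-luc and 69.29, 71.24 and 65.51 FPKM in sh-IUR1. Each sh-IUR1 library was above each sh-luc library, by 3.58 FPKM at the nearest. The log2 fold change was 0.24 (SE 0.076, 95% interval 0.07 to 0.41), with an adjusted p of 0.93 in limma and 0.667 to 0.9997 over the alternatives. It fell to 0.16 without sh-luc unnumbered and to 0.20 after correction for GC content and length.

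EEF1A1 was level by comparison, at 8111.47, 7801.77 and 7439.73 FPKM in sh-luc and 7995.76, 7665.81 and 7926.01 FPKM in sh-IUR1. It exceeded EEF1A2 by 135.2 ± 18.7 times in sh-luc and 114.7 ± 6.72 times in sh-IUR1. The groups overlapped, since sh-luc r2 (120.1) fell below sh-IUR1 r2 (121.0), and the mean of sh-luc r1 and r2 was 124.7. The annotation holds 165 pseudogenes with the symbols of these families, and reads of EEF1A1 in particular can match such copies. Of the 6 genes grouped here under eEF1, 3 were above and 3 below 0, with a median of 0.0008. The group includes EEF1E1, which shares the symbol family but need not be an eEF1 subunit.

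EEF2, the translocase, was at 2046.51, 2435.53 and 2467.54 FPKM in sh-luc and 2457.61, 2638.78 and 2392.34 FPKM in sh-IUR1. The groups overlapped, the lowest value was again that of sh-luc unnumbered, and the log2 fold change of 0.11 (SE 0.081) was 0.025 without it. EEF2K, the kinase that inhibits eEF2, had the same library lowest, at 13.92, 17.49 and 16.86 FPKM against 17.02, 18.07 and 17.00 FPKM, and its log2 fold change of 0.11 was 0.015 without it. The ratio of EEF2 to EEF2K stayed between 139.3 and 147.0 in the 6 libraries.

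The 6 remaining genes encode EEFSEC, which delivers selenocysteine, and methyltransferases of eEF1A and eEF2, with mean levels of 4.07 to 18.3 FPKM. EEF1AKMT1, a lysine methyltransferase of eEF1A, was at 4.15, 4.43 and 4.38 FPKM in sh-luc and 3.51, 3.79 and 4.14 FPKM in sh-IUR1. The groups touched within 0.01 FPKM without overlapping, and the log2 fold change was -0.15 (SE 0.083). EEF1AKMT4 was at 19.61, 18.55 and 18.69 FPKM against 17.76, 20.45 and 15.00 FPKM, with overlapping groups. EEFSEC was at 10.48, 14.16 and 14.88 FPKM against 14.00, 15.21 and 11.94 FPKM, and its log2 fold change turned from 0.06 to -0.08 without sh-luc unnumbered.

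**Figure D3:**
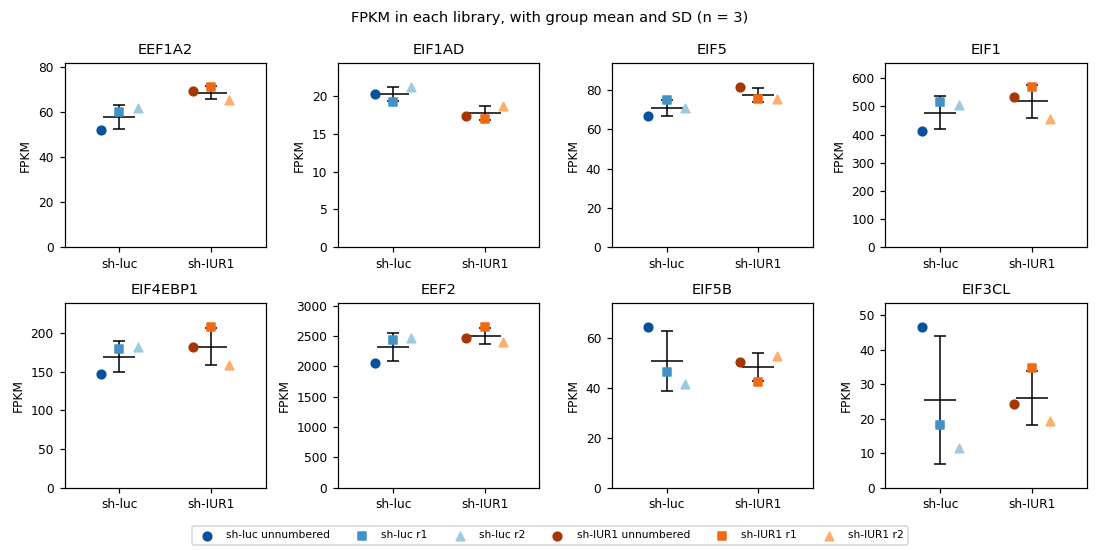
FPKM of 8 members in each library (points), with the group mean (bar) and SD (whiskers, n = 3), from 0 on each axis. The groups are apart for EEF1A2, EIF1AD and EIF5, whereas for EIF1, EIF4EBP1, EEF2, EIF5B and EIF3CL they overlap and the sh-luc unnumbered library is the lowest or highest of sh-luc.

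The sh-luc unnumbered library was the highest of the 6 for 23 members and the lowest for 17, so it held an extreme for 40 of 67 (59.7%, against 62.5% of all genes). The sh-IUR1 r1 library held an extreme for 36 (53.7%, against 48.2%). EIF5B, EIF3E, EIF4E and EIF1AX were highest in sh-luc unnumbered, and EIF1, EIF4EBP1, EEF2 and EEFSEC lowest. Across the 67 genes, the deviation of sh-luc unnumbered from the mean of r1 and r2 had a Pearson correlation of -0.29 with the GC content of the transcript, and of -0.33 across all genes with a GC value, where genes share the libraries and are not independent. The log2 fold change between groups had a Pearson correlation with GC content of 0.35 across the 67 members and 0.11 across all genes with a GC value. The part of GC content, RNA quality or stress in these deviations and fold changes was not tested.

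**Figure D4:**
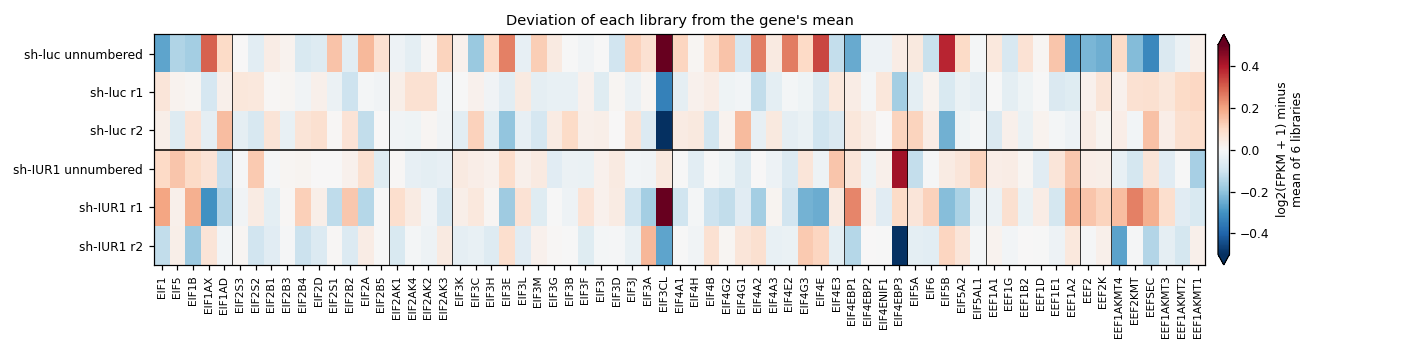
Deviation of each library (rows) from the gene's mean over the 6 libraries in log2(FPKM + 1), for the 67 members (columns, by role); red is above and blue below the mean as the color scale shows. Strong colors lie in the sh-luc unnumbered row, for example for EIF5B, EIF4E and EEFSEC, in that row and the sh-IUR1 r1 row for EIF1AX, and in several rows for EIF3CL and EIF4EBP3.

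Of 52 other genes of translation listed for comparison, 49 were tested. They cover termination, cap-complex and mTOR partners, eIF2 phosphatase subunits and related genes, modification of eIF5A and eEF2, and mitochondrial factors. In limma 0 of the 49 had an adjusted p under 0.05 (lowest 0.93) and 0 an unadjusted p under 0.05, against 2.65% of all genes. Their fold changes ran from -0.18 for DDX3X, a helicase, to 0.24 for PPP1R15A, the stress-induced eIF2 phosphatase subunit. The median was -0.0088, with 24 of 49 above 0. In 2 of the 49 genes, MRRF and DOHH, sh-IUR1 lay wholly above sh-luc (4.04% of all genes did), and in 2, GSPT1 and RHEB, wholly below (3.03% of all genes). These shares were near the background.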

How the data were processed

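The data are 6 RNA-seq libraries from K562 cells, 3 sh-luc and 3 sh-IUR1, grouped by their labels. Expression was derived from alignments to hg38 after removal of adaptor and unreliable sequence, and the submitters' notes name samtools 0.1.19. The authors deposited FPKM values (the methods name RPKM), together with a score, the gene's FPKM standardized over the libraries, and a fraction giving its cluster membership. The scores, fractions and cluster numbers were not used. The aligner and annotation are not given in the sources used here. The table lists genes with an SD of at least 0.0501 FPKM, and depth is unknown: of 116 low values of single-exon genes at most 35.3% came within 0.1 of whole fragments.

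Symbols came from RefSeq GRCh38.p14 (12363 of 12486 genes matched), and GC content and length from GENCODE transcripts (67 of 67 members). The 12276 genes averaging 0.1 FPKM or more were modelled as log2(FPKM + 1) with limma 3.58.1 in R 4.3.3 (eBayes with a trend, Benjamini-Hochberg over all genes). A fold change on this scale understates changes of low genes. The fit was also run on simulated data with independent noise for each gene. These had no shift shared across a library like that of sh-luc unnumbered, so no conclusion is drawn from that run. The members and gene lists were chosen with earlier results of these data known. The rule named 27 members: per role (10) the highest level and the largest fold change, the 4 smallest p-values per direction, members without overlap, EIF4EBP1, the eIF2 kinases and the 4 widest sh-luc ranges. EIF3C, EIF4E, EIF1AX, EEF1G, EIF4E3, EIF4G1 and EIF4EBP2, and EIF4EBP3 in a figure, were added after their values were seen, as were the paralog ratios. The alternatives were a pseudocount of 0.1, other filters and scalings, eBayes without a trend, an unmoderated model, a replicate block and each library left out. A loess correction for GC content and length (span 0.5) was added after the data were seen.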

Additional observations from a re-analysis of the deposited data

How the results depend on the processing

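Under 15 alternatives 0 of 67 members reached an adjusted p under 0.05, the lowest being 0.667. Of 405 fold changes (27 named members, 15 alternatives), 383 did not change direction and 22, of 10 genes, did. The other filters, eBayes without a trend, the unmoderated model and the replicate block cannot alter a fold change. Their share of the 383 was thus fixed in advance. Median-ratio scaling gave -0.0057 for EEF1A1, -0.012 for EIF2AK1 and -0.00081 for EIF3K. Quantile normalization gave 0.017 for EIF2S3 and 0.024 for EIF3E. The correction for GC content and length, chosen after seeing the data, gave -0.015 for EIF2AK1 and 0.0042 for EIF3E. With each library left out, values ran from -0.017 to 0.045 for EEF1A1, -0.20 to 0.0083 for EEF1AKMT4, -0.083 to 0.15 for EEFSEC, -0.031 to 0.048 for EIF2AK1, -0.032 to 0.030 for EIF2AK4, -0.033 to 0.019 for EIF2S3, -0.20 to 0.76 for EIF3CL, -0.10 to 0.12 for EIF3E, -0.0008 to 0.048 for EIF3K and -0.17 to 0.14 for EIF5B. The cause was not tested.

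Members with an unadjusted p under 0.05 numbered 2 in limma with all libraries. They numbered 4 in the unmoderated model (5.97%, against 2.80% of all genes) and 3 after quantile normalization (4.48%, against 2.53%). With a library left out they numbered 1 to 3 (1.49% to 4.48%, against 1.29% to 6.97% of all genes). The count was 1 without sh-luc r2, sh-IUR1 unnumbered or sh-IUR1 r1. Members whose groups do not overlap, 7 with all libraries before rescaling (10.4%, against 7.07% of all genes), also moved with the scaling. With all libraries they numbered 9 after quantile normalization (13.4%, against 6.97%) and 8 after median-ratio scaling (11.9%, against 7.31%). They numbered 6 after the correction for GC content and length (8.96%, against 9.01%). With a library left out, where fewer libraries have to separate, they numbered 9 to 16. The count was 16 (23.9%, against 22.0% of all genes) without sh-luc r1 and 15 (22.4%, against 25.2%) without sh-IUR1 r2. It was 9 (13.4%, against 11.9% to 14.2%) without each other library. Of the other translation genes, 0 to 1 had an unadjusted p under 0.05 with a library left out (against 1.29% to 6.97% of all genes). Under the remaining alternatives 0 did. The replicate block gave 2 members at an unadjusted p under 0.05 (2.99%, against 4.34% of all genes) and 0 adjusted. Same-numbered libraries deviated together at correlations of 0.044, 0.39 and -0.34, so the numbers were not taken to pair the libraries. Depth is unknown, which limits EIF4E3, EIF5AL1 and the other members at a few FPKM or less.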
